A study of Mus musculus with 18 samples.

Results

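The genes of the mitochondrial ribosome were examined in mouse embryonic fibroblast (MEF) cells in which SSBP1 or HSF1 had been knocked down. Members were taken by name: every probe set assigned to exactly 1 gene symbol of the form Mrpl or Mrps plus a number, with the brightest probe set kept for each symbol. This gave 77 genes of 19938 symbols on the array, 48 with an Mrpl and 29 with an Mrps symbol. By the place of the protein in the ribosome, 50 encode large-subunit proteins and 26 encode small-subunit proteins. Mrps18a and Mrps30 carry a small-subunit name but were counted with the large subunit, where their products lie. Mrps36 was kept apart, since its product is a component of the 2-oxoglutarate dehydrogenase complex. The annotation used for names lists 78 protein-coding genes with such symbols, and the 1 not measured alone was Mrpl53, whose probe set it shares with Ccdc142.

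The arrays came from immortalised MEF cells of the ICR background, grown at 37 °C and exposed for 2 h to an adenovirus that expressed a short hairpin RNA, then kept in normal medium for 70 h. There were 6 groups of cells with 3 arrays each, 18 in all. SSBP1-KD HS, HSF1-KD HS and SCR HS cells carried the hairpin against SSBP1, the hairpin against HSF1 or the scrambled RNA and spent 1 h at 42 °C, and SSBP1-KD Cont, HSF1-KD Cont and SCR Cont cells were their unheated counterparts. All groups therefore carried the virus, each target was represented by 1 hairpin, and the SCR arrays served both knockdowns. Nothing in the labels tells whether the 3 arrays of a group were separate cultures, and the p-values below therefore measure only the spread between these arrays. The fibroblast markers Fn1, Vim and Col1a1 were among the brightest symbols, and the mean over 8 fibroblast markers lay between 11.2 and 11.5 in every group, against 7.09 to 8.02 for the marker lists of epithelial cells, leukocytes, endothelial cells and skeletal muscle. Most of these lists shifted with SSBP1 knockdown, and some with HSF1 knockdown as well. The fibroblast mean was 11.16 in SSBP1-KD HS against 11.44 in SCR HS cells and 11.18 in SSBP1-KD Cont against 11.50 in SCR Cont cells. In both conditions 5 of 8 markers were lower (Col1a1, Col1a2, Col3a1, Pdgfrb and Fn1). Others went the other way, with Vim and S100a4 higher in SSBP1-KD HS cells and Thy1 higher in SSBP1-KD Cont cells. Of all symbols, 14.4% were lower and 14.3% higher after heat shock, and 16.5% lower and 14.6% higher without heat. The leukocyte mean was 7.39 in SSBP1-KD HS against 7.18 in SCR HS cells and 7.36 in SSBP1-KD Cont against 7.09 in SCR Cont cells, with 2 of 4 markers higher in both (Cd68 and Itgam). The epithelial mean was 7.69 in SSBP1-KD HS against 7.92 in SCR HS cells, and the endothelial mean was 7.45 against 7.29. In HSF1-KD cells the same 5 fibroblast markers were below SCR in both conditions, the list mean being 11.22 in HSF1-KD HS and 11.32 in HSF1-KD Cont cells. S100a4 was above SCR in both, and 10.7% of all symbols were lower after heat shock and 10.1% without heat. The part of these shifts in the results below was not tested.

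The mitochondrial ribosome makes the few proteins that mitochondrial DNA encodes, all of them parts of the respiratory chain and ATP synthase. Its ribosomal RNAs come from mitochondrial DNA, whereas every one of its proteins is encoded in the nucleus, made in the cytosol and imported. SSBP1 coats single-stranded mitochondrial DNA during replication, and HSF1 is the transcription factor that drives heat shock protein genes, so the comparison asks how the nuclear genes for this ribosome stood in cells short of either protein. Part of the ribosome's proteins have bacterial counterparts, and the rest are found only in mitochondria.

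The members are scattered over 17 chromosomes, with at most 11 on any one of them. Promoter windows from RefSeq (GRCm38.p6), which run from 250 bases before to 50 bases after the annotated start, were found for 68 of the 77 genes. Where several starts were listed for a gene, only the first listed was used. Short motifs of factors with known roles in mitochondrial gene expression were searched on both strands. The ETS-type core CCGGAAG, bound by factors such as GABP, was in 24 of the 68 windows (35.3%), against 9.12% of all 27025 windows. The YY1-type core AAGATGGC was in 12 windows (17.6%), against 2.88% of all, and the NRF1-type core GCATGCGC in 8 (11.8%), against 2.80%. A pair of inverted heat shock units, TTCNNGAA, was in 1 window (1.47%), against 8.40% of all. The members are protein-coding genes, whereas the 27025 windows include other genes. Of the 17492 windows of protein-coding genes, 11.9% held the ETS core, 3.22% the YY1 core, 3.61% the NRF1 core and 7.53% the heat shock pair. The 28 windows of genes that were higher in SSBP1-KD HS than in SCR HS cells held the ETS core in 8, the YY1 core in 6 and the NRF1 core in 3, while the 40 other windows held them in 16, 6 and 5. A match is a run of letters in the window and does not show that a factor was bound.

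Windows of 4 genes on which the results below turn are printed 5′ to 3′ on the gene's strand, with motif matches in capitals. Mrps18a (chr17:46110754-46111053, plus strand) has an ETS core just before and a YY1 core just after its start, and was higher in SSBP1-KD cells. Mrpl9 (chr3:94443086-94443385, plus strand) has overlapping NRF1 cores read on both strands and was also higher. Mrps11 (chr7:78782881-78783180, plus strand) starts head to head with Mrpl46 on the opposite strand, so that the window below covers the starts of both genes. Mrpl23 (chr7:142532782-142533081, plus strand) had the lowest difference of all members, and its window holds none of the motifs searched. That window lies inside the annotated gene (142532467 to 142540747), so the bases at the gene's outer end were not searched.
Mrps18a: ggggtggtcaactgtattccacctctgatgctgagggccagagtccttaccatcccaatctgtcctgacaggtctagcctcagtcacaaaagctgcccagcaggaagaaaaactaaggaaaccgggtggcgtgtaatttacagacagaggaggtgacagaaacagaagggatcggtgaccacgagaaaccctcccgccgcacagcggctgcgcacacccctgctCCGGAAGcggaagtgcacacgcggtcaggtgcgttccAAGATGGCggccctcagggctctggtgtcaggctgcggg
Mrpl9: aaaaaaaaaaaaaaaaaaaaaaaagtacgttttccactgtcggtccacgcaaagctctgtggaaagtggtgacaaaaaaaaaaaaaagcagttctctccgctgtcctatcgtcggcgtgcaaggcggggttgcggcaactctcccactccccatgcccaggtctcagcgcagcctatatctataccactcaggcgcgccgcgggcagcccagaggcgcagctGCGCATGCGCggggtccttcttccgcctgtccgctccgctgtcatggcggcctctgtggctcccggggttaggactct
Mrps11: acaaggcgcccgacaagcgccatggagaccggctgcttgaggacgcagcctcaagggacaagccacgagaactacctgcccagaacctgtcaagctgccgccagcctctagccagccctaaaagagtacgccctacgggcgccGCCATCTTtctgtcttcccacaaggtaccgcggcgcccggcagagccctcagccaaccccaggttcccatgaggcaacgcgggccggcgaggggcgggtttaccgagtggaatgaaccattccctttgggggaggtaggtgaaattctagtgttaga
Mrpl23: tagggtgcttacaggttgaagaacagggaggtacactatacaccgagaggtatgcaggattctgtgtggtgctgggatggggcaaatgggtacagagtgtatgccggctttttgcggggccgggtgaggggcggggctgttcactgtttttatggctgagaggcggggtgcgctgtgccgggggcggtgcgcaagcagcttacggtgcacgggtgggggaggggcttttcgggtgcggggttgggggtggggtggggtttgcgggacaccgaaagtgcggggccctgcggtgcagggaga

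Values are RMA signals on the log2 scale, as deposited. The members were bright: 73 of 77 had a mean signal over the 18 arrays above the median of all symbols (8.21), and their own median was 9.76, with a range of 7.78 to 11.82. The brightest large-subunit probe sets were those of Mrpl40, Mrpl49 and Mrpl39, and the dimmest those of Mrps30, Mrpl47 and Mrpl44. For the small subunit the brightest were Mrps18b, Mrps15 and Mrps21 and the dimmest Mrps26, Mrps12 and Mrps14. Signals of different probe sets depend on their probes, so this order is one of signal and not of transcript number. A fit of the brighter probe sets alone called a larger share of symbols in each comparison of 2 groups. Shares of members called are therefore given against all symbols and, for the larger counts, also for the brighter probe sets, those with a mean signal above the median probe set, which held 76 of the members and 10985 symbols.

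The target of the knockdown was examined first. Ssbp1 gave log2 signals of 8.71, 8.57 and 8.67 in SSBP1-KD HS cells, against 9.07, 9.09 and 9.03 in SCR HS cells. Without heat it gave 9.02, 9.25 and 9.32 in SSBP1-KD Cont cells, against 9.54, 9.36 and 9.36 in SCR Cont cells. The knockdown arrays were below the SCR arrays in both conditions without overlap. In limma's moderated test with Benjamini-Hochberg adjustment over all 35557 probe sets, the log2 difference was −0.41 ± 0.08 (SE, adjusted p = 0.0015) in heat-shocked cells, and it was −0.22 ± 0.08 (adjusted p = 0.056) in unstressed cells, which did not pass the threshold of 0.05 used throughout. Hsf1 has no probe set of its own symbol alone, so the HSF1-KD label was not checked.

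After heat shock, the mitochondrial ribosomal protein genes were higher in SSBP1-KD than in SCR cells more often than symbols in general. Of the 77 genes, 32 were higher at an adjusted p under 0.05 (41.6%), against 14.3% of all symbols, and 3 were lower (3.90%), against 14.4% of all symbols. The difference was above 0 in 64 of 77 genes. Their median log2 difference was 0.16, and that of all symbols was 0.03. Among the brighter probe sets 37 of 76 members were higher (48.7%), against 25.5% of symbols, and 3 were lower (3.95%), against 27.1%. By the equal-variance Student test of the methods, adjusted in the same way, 19 were higher (24.7%), against 9.86% of all symbols, and 1 was lower (1.30%), against 9.81%. The rises were modest, from 12.6% for Mrpl33 to 43.2% for Mrpl20. Both subunits took part. Of 50 large-subunit genes 21 were higher and 2 lower, with a median of 0.16, and of 26 small-subunit genes 11 were higher and 1 lower, with a median of 0.15. Proteins with bacterial counterparts and proteins specific to mitochondria were both represented, with 12 of 30 and 8 of 19 higher in the large subunit, and 6 of 16 and 4 of 9 in the small subunit.

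Mrpl20, a large-subunit protein related to the bacterial assembly protein L20, had the largest rise. Its log2 signals were 10.35, 10.37 and 10.32 in SSBP1-KD HS cells, against 9.97, 9.84 and 9.68 in SCR HS cells. The 3 knockdown arrays lay close together above all SCR arrays, and the difference was 0.52 ± 0.09 (SE, limma adjusted p = 0.00089). The following genes of the ranking, Mrps18b and Mrps18a, encode relatives of bacterial S18 that sit in different subunits of the mitochondrial ribosome. Mrps18b gave 11.27, 11.16 and 11.18 in SSBP1-KD HS cells, against 10.82, 10.69 and 10.65 in SCR HS cells, a difference of 0.48 ± 0.08 (adjusted p = 0.00032). Mrps18a gave 10.65, 10.74 and 10.60 in SSBP1-KD HS cells, against 10.21, 10.26 and 10.15 in SCR HS cells, a difference of 0.46 ± 0.07 (adjusted p = 0.00024). Neither gene showed overlap between the groups. Mrps18b overlaps a long non-coding RNA gene (Gm16279) and Mrps18a overlaps Rsph9 in the annotation, and the share of these neighbours in the signals was not tested.

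The other 9 of the 12 largest rises after heat shock lay between 0.34 and 0.43. In the small subunit they were Mrps21 (0.43), Mrps28 (0.37), the counterpart of bacterial S1, and Mrps31 (0.36), a protein found only in mitochondria. In the large subunit they were Mrpl9 (0.39), Mrpl36 (0.39), Mrpl3 (0.36), whose bacterial relative lies near the peptidyl transferase centre, Mrpl47 (0.34), Mrpl19 (0.34) and Mrpl11 (0.34), whose bacterial relative lies where elongation factors bind. Mrps21 gave 10.97, 10.98 and 10.97 in SSBP1-KD HS cells, against 10.66, 10.41 and 10.57 in SCR HS cells. Its knockdown arrays were nearly alike and stood above all SCR arrays. Mrpl47 has a dimmer probe set as well, for which the difference was 0.13 and did not pass the test (adjusted p = 0.055).

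**Figure D1:**
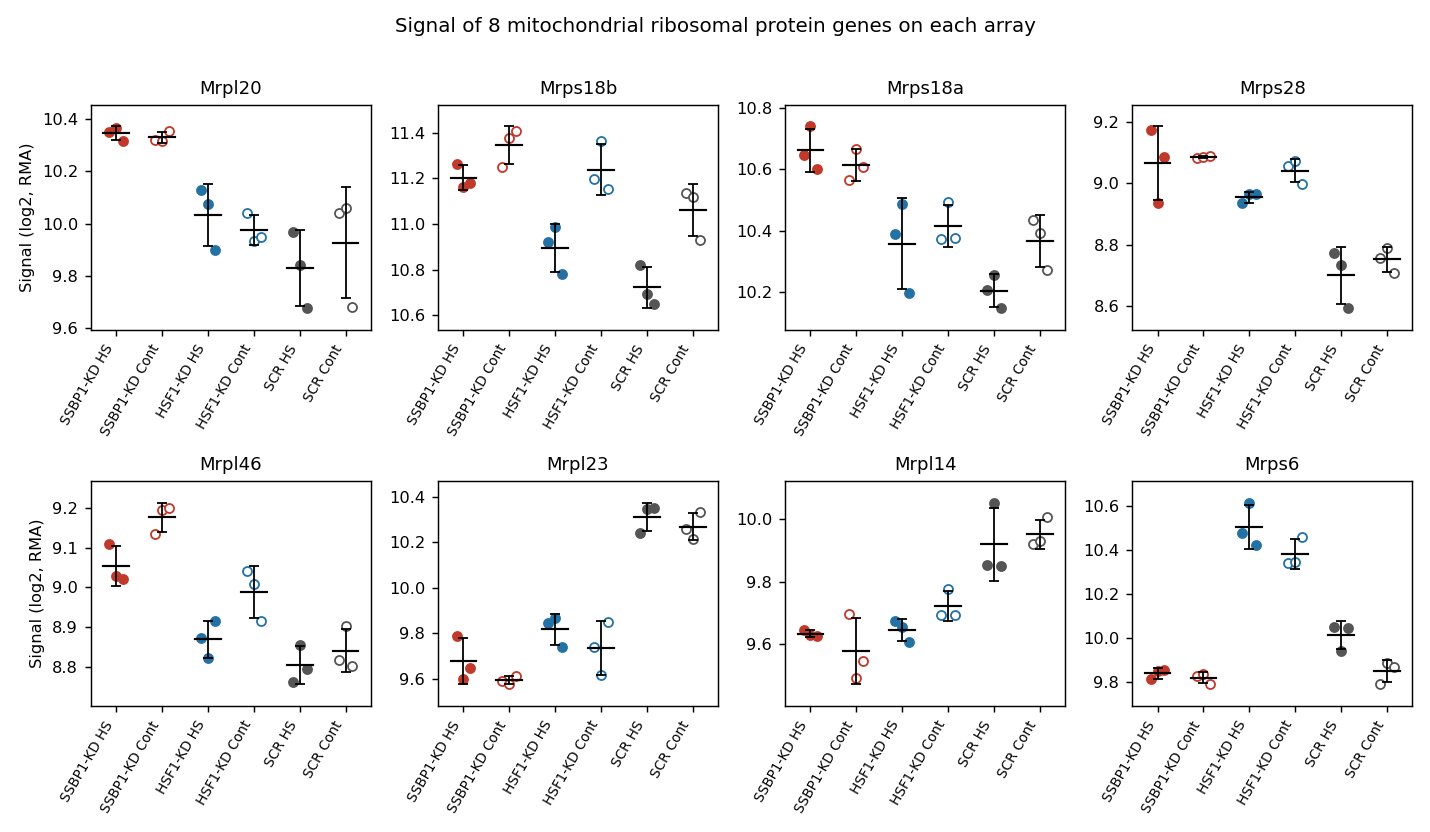
Signal of 8 genes on each array (log2, vertical axes, each with its own range), with filled circles for heat-shocked and open circles for unstressed cells, red for SSBP1-KD, blue for HSF1-KD and grey for SCR. Lines mark the mean of 3 arrays and bars the SD. Mrpl20 sits between 10.32 and 10.37 on all 6 SSBP1-KD arrays, Mrpl23 and Mrpl14 are below the SCR arrays in both knockdowns, and Mrps6 is highest in HSF1-KD cells.

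Mrpl23 went the other way. This gene of the large subunit, whose bacterial relative lies at the exit of the peptide tunnel, gave log2 signals of 9.79, 9.60 and 9.65 in SSBP1-KD HS cells, against 10.24, 10.34 and 10.35 in SCR HS cells. The groups were far apart relative to their spread, with a difference of −0.63 ± 0.06 (SE, limma adjusted p = 7.2e-06), and the signal fell by 35.5%. A second Mrpl23 probe set gave −0.63 as well (adjusted p = 7.4e-06). Its number lies outside those of the members on chromosome 7, where Mrpl23 lies. It may read another copy and is not independent support. A pseudogene, Mrpl23-ps1, lies on chromosome 2 and has no probe set under its own symbol alone, so its share of these signals was not tested. Mrpl14, another large-subunit gene, gave 9.65, 9.63 and 9.63 in SSBP1-KD HS cells, against 9.85, 10.05 and 9.85 in SCR HS cells, a difference of −0.28 ± 0.06 (adjusted p = 0.0028). Mrpl14 overlaps Tmem63b in the annotation. The third lower gene was Mrps6, which differed by −0.17 ± 0.05 (adjusted p = 0.030) and passed the test in 19 of the 27 alternative analyses.

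Without heat, fewer members passed the test in SSBP1-KD cells. Of the 77 genes, 18 were higher than in SCR Cont cells (23.4%), against 14.6% of all symbols, and 3 were lower (3.90%), against 16.5% of all symbols. The median log2 difference of the members was 0.05, the same to 2 decimals as that of all symbols. Large-subunit genes were higher in 10 of 50 and small-subunit genes in 8 of 26. The count of higher genes rested on the SCR Cont arrays: it was 6 without SCR Cont replicate 3, and it was 21 without SSBP1-KD Cont replicate 1, the array that departed most from its group (mean absolute residual 0.152, against 0.0700 to 0.110 on the other 17 arrays). The share above background did not hold under every setting. Among the brighter probe sets 21 of 76 were higher (27.6%), against 23.3% of symbols. In a fit of the SSBP1-KD Cont and SCR Cont arrays alone 5 of 77 were higher (6.49%), against 6.88% of all symbols, and by the methods' t-test 3 were (3.90%), against 6.28%.

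The 12 largest rises in unstressed cells were Mrpl20 (0.41), Mrpl9 (0.34), Mrpl46 (0.34), Mrps28 (0.33), Mrpl12 (0.32), Mrps23 (0.28), Mrps18b (0.28), Mrpl36 (0.27), Mrpl19 (0.26), Mrps18a (0.25), Mrpl3 (0.24) and Mrps7 (0.24). Mrpl12 encodes the stalk protein of the large subunit, and Mrps7 belongs to the head of the small subunit. Mrps28 gave 9.08, 9.09 and 9.09 in SSBP1-KD Cont cells, against 8.76, 8.79 and 8.71 in SCR Cont cells, with a difference of 0.33 ± 0.06 (SE, limma adjusted p = 0.00057). Mrpl46, a protein specific to mitochondria, gave 9.13, 9.20 and 9.20 in SSBP1-KD Cont cells, against 8.82, 8.90 and 8.80 in SCR Cont cells, with a difference of 0.34 ± 0.05 (adjusted p = 0.00012). Both sets of knockdown arrays stood clear of the SCR arrays. Mrpl20 gave 10.32, 10.32 and 10.36 in SSBP1-KD Cont cells, against 10.04, 10.06 and 9.68 in SCR Cont cells. The low value of 9.68 was that of SCR Cont replicate 3, and the groups did not overlap (difference 0.41 ± 0.09, adjusted p = 0.0052).

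The lower genes in unstressed cells were Mrpl23, Mrpl14 and Mrps34. Mrpl23 gave 9.59, 9.58 and 9.61 in SSBP1-KD Cont cells, against 10.26, 10.21 and 10.33 in SCR Cont cells, and it fell by 37.3%, with a difference of −0.67 ± 0.06 (SE, limma adjusted p = 3.7e-06). Mrpl14 gave 9.70, 9.49 and 9.55 in SSBP1-KD Cont cells, against 9.92, 9.93 and 10.00 in SCR Cont cells, a difference of −0.37 ± 0.06 (adjusted p = 0.00034). Neither gene's groups overlapped. Mrps34, a mitochondria-specific protein of the small subunit, differed by −0.30 ± 0.08 (adjusted p = 0.018), and its difference after heat shock was −0.04 (adjusted p = 0.83).

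All 18 genes that were higher in unstressed SSBP1-KD cells were also higher after heat shock, and 14 more passed the test only after heat shock. Mrpl14 and Mrpl23 were lower in both conditions, and 41 genes passed in neither. The same overlap was not counted over all symbols, so it cannot be read as particular to these genes. That a gene passed in 1 condition alone does not show that its differences differed, and the direct test is given below with the heat responses. Under all the alternative analyses run, 5 of 21 genes kept their call in unstressed cells, namely Mrpl46, Mrps23, Mrps28, Mrpl14 and Mrpl23, and 16 of 35 did so in heat-shocked cells.

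**Figure D2:**
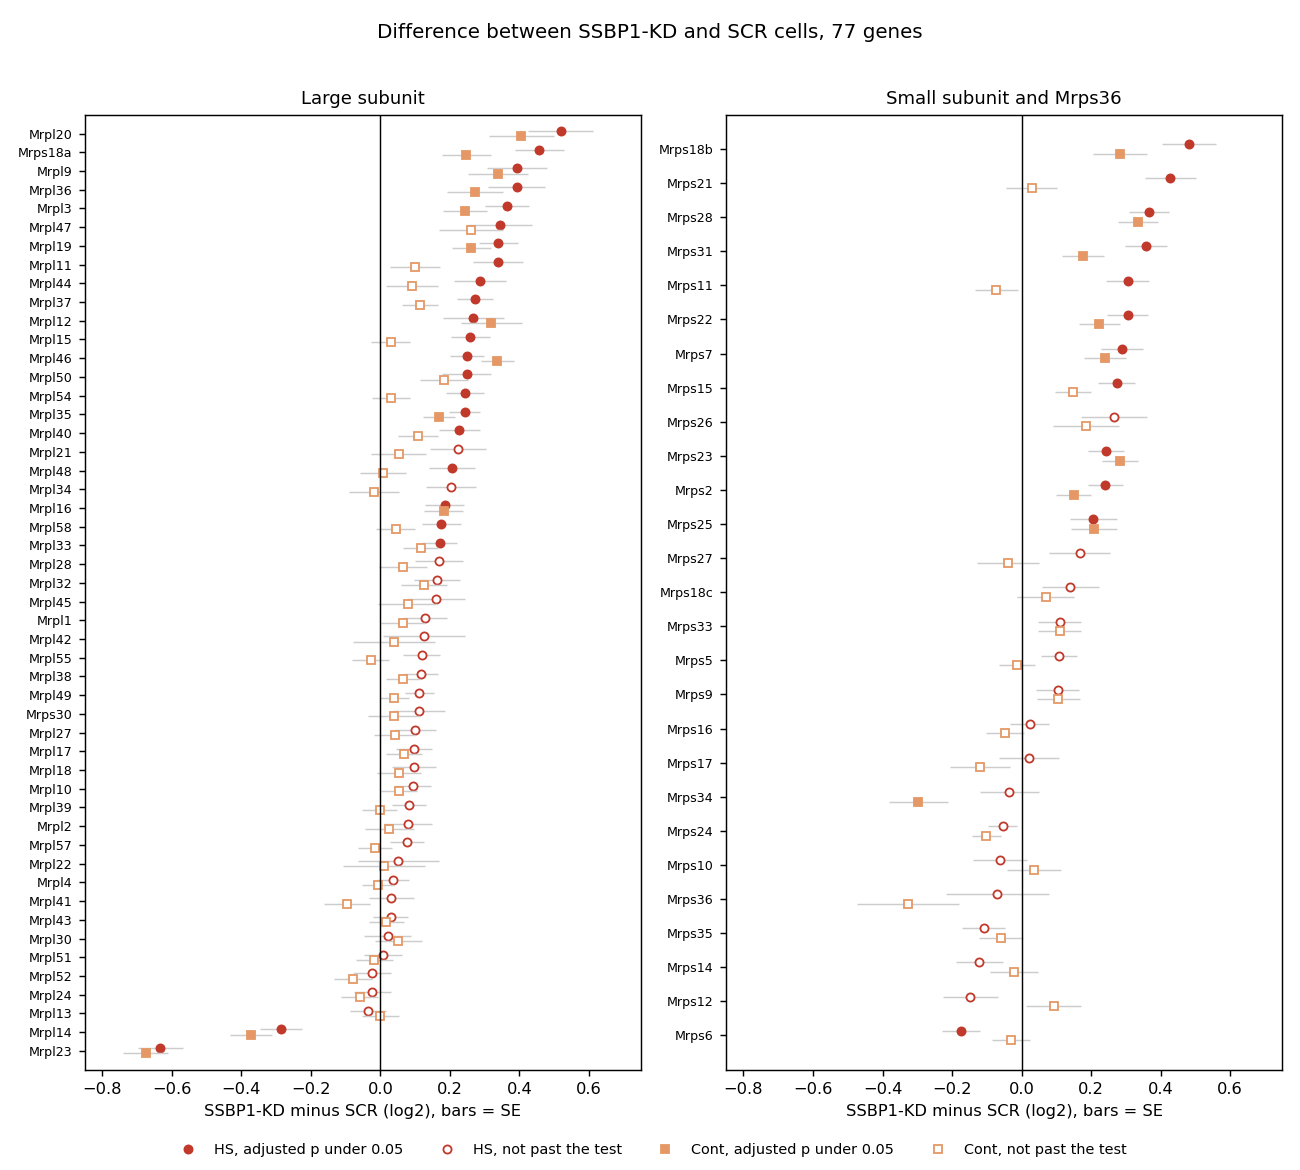
Log2 difference between SSBP1-KD and SCR cells (horizontal axis) for all 77 genes, with large-subunit genes on the left and small-subunit genes and Mrps36 on the right, ordered by the difference after heat shock. Circles show heat-shocked and squares unstressed cells, filled symbols have an adjusted p under 0.05, and bars are the SE. Most points lie to the right of 0, up to 0.52 for Mrpl20, and Mrpl23 lies far to the left in both conditions.

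In HSF1-KD cells heat shock itself raised and lowered a smaller share of these genes than of all symbols. In SCR cells this held for the rises only. In SSBP1-KD cells 2 of 77 were higher after heat shock (4.08% of all symbols were), and 0 were lower (2.82% of all symbols were). Such small counts cannot be told from these shares. With the replicate number as a block 4 were higher (5.19%), against 3.48% of all symbols. In either direction 8 members had an unadjusted p under 0.05 in the main fit. In HSF1-KD cells 2 were higher, against 10.6% of all symbols, and 4 were lower, against 10.8%. In SCR cells 2 were higher, against 7.63% of all symbols, and 11 were lower (14.3%), against 8.34%. Among the brighter probe sets 12 of 76 were lower in SCR cells (15.8%), against 16.8% of symbols. The median difference between heat-shocked and unstressed cells was 0.01 in SSBP1-KD, 0.01 in HSF1-KD and −0.06 in SCR cells, where 21 of the 77 differences were above 0. The medians in SSBP1-KD and HSF1-KD cells were −0.00010 and −0.01 after quantile normalisation. The count in SCR cells depended on single arrays, being 7 without SCR HS replicate 2, 6 without SCR HS replicate 3, 7 without SCR Cont replicate 1 and 5 without SCR Cont replicate 2, and the count in HSF1-KD cells was 2 without HSF1-KD Cont replicate 2. In SSBP1-KD cells it was 1 without SSBP1-KD HS replicate 1 or without SSBP1-KD HS replicate 2.

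The 5 largest falls in SCR cells were those of Mrps18b (−0.34), Mrps21 (−0.27), Mrpl44 (−0.23), Mrpl55 (−0.23) and Mrpl41 (−0.23). Mrps18b gave 10.82, 10.69 and 10.65 in SCR HS cells, against 11.14, 11.12 and 10.93 in SCR Cont cells, and the groups did not overlap (difference −0.34 ± 0.08, SE, limma adjusted p = 0.0067). In HSF1-KD cells its difference was also −0.34 (adjusted p = 0.0055), and Mrpl55, Mrpl17 and Mrpl39 were lower as well. Mrpl51 encodes a large-subunit protein specific to mitochondria, and its kept probe set rose in all 3 kinds of cells. The differences were 0.29 in SSBP1-KD (adjusted p = 0.0031), 0.23 in HSF1-KD (adjusted p = 0.0063) and 0.27 in SCR cells (adjusted p = 0.0028). Its signals were 10.55, 10.43 and 10.44 in SSBP1-KD HS cells, against 10.11, 10.23 and 10.20 in SSBP1-KD Cont cells. A dimmer probe set of Mrpl51 did not pass in any of the 3, with differences of −0.0080, 0.06 and 0.13 (adjusted p = 0.97, 0.70 and 0.42). The rise thus rests on the brighter one, whose number falls among those of members on chromosome 2. Mrpl51 lies on chromosome 6, so a rise of the gene itself is not shown. Mrps23 rose by 0.18 in HSF1-KD (adjusted p = 0.022) and by 0.20 in SCR cells (adjusted p = 0.016), and Mrps11 rose by 0.23 in SSBP1-KD cells (adjusted p = 0.033).

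The direct test of a difference in heat response found none among the members. For SSBP1-KD against SCR cells 0 of 77 genes passed in either direction (0.181% of all symbols were higher and 0.311% lower), 9 had an unadjusted p under 0.05, and 1 passed in a quantile-normalised fit, in a fit with array weights and among the brighter probe sets. The difference in response was above 0 in 65 of 77 genes, with a median of 0.07, against 9684 of 19938 symbols and a median of −0.0047. The largest were Mrps21 (0.40 ± 0.10, SE, limma adjusted p = 0.14) and Mrps11 (0.38 ± 0.09, adjusted p = 0.088), neither of which passed. For HSF1-KD against SCR cells 0 of 77 genes passed (0.0100% of all symbols were higher and 0.336% lower), 6 had an unadjusted p under 0.05, and the alternative analyses called none. Over the 6 groups, the highest group mean fell to SSBP1-KD HS in 24 of 77 genes (31.2%, against 16.3% of all symbols) and to SCR HS in 4 (5.19%, against 11.7%). The lowest fell to SSBP1-KD HS in 3 (3.90%, against 15.3%) and to SCR HS in 39 (50.6%, against 22.8%).

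**Figure D3:**
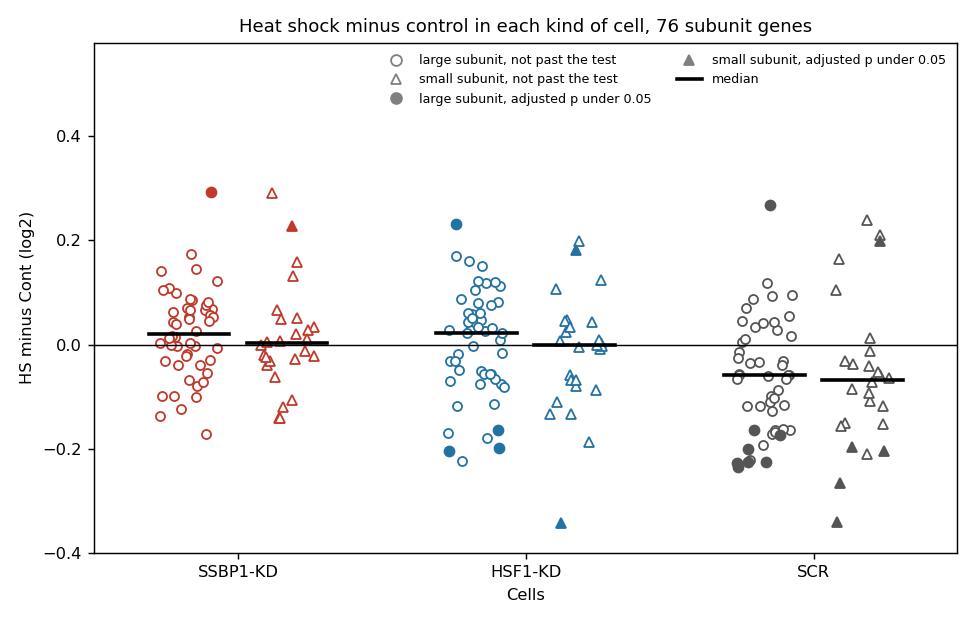
Difference between heat-shocked and unstressed cells (log2, vertical axis) for the 76 ribosomal subunit genes in SSBP1-KD, HSF1-KD and SCR cells. Circles are large-subunit and triangles small-subunit genes, spread sideways for visibility, filled symbols have an adjusted p under 0.05, and lines are medians. The medians lie at or just above 0 in SSBP1-KD cells and between −0.07 and −0.06 in SCR cells. The brighter Mrpl51 probe set is the highest filled circle in each kind of cell, and the dimmer one (not drawn) did not pass.

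HSF1 knockdown was compared with the same SCR arrays, so its values are given beside those of SSBP1 knockdown without a count of shared genes. In heat-shocked HSF1-KD cells 15 of 77 genes were higher (19.5%), against 13.1% of all symbols, and 4 were lower (5.19%), against 10.7%, with a median of 0.07. Among the brighter probe sets 19 of 76 were higher (25%), against 24.2% of symbols, and by the methods' t-test 7 of 77 were (9.09%), against 8.33%, so the shares of members and symbols were close there. In unstressed HSF1-KD cells 6 were higher, against 10.9% of all symbols, and 6 were lower, against 10.1%, with a median of 0.01. When each array was centred on a common median the unstressed split was 3 higher and 7 lower, and the median was −0.01. Single arrays moved these counts. The total called in unstressed cells was 12, and it was 5 without HSF1-KD Cont replicate 2, 6 without SCR Cont replicate 1, 7 without SCR Cont replicate 2 and 7 without SCR Cont replicate 3. The total in heat-shocked cells was 19, and it was 11 without HSF1-KD HS replicate 1, 10 without SCR HS replicate 2 and 12 without SCR HS replicate 3.

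Mrps6, the counterpart of bacterial S6, rose most in HSF1-KD cells. Its log2 signals were 10.48, 10.61 and 10.42 in HSF1-KD HS cells, against 10.05, 9.94 and 10.05 in SCR HS cells (difference 0.49 ± 0.05, SE, limma adjusted p = 1.5e-05). In unstressed cells they were 10.34, 10.34 and 10.46 with the HSF1 hairpin, against 9.79, 9.88 and 9.87 in SCR Cont cells (0.53 ± 0.05, adjusted p = 1.1e-05). The 6 HSF1-KD arrays were above all other arrays, while the SSBP1-KD arrays lay at 9.79 to 9.85. Mrps6 overlaps Slc5a3 in the annotation, and the share of that gene in the signal was not tested. The other large rises after heat shock in HSF1-KD cells were Mrpl11 (0.45), Mrps21 (0.30), Mrpl44 (0.27) and Mrps28 (0.25), and without heat Mrps28 (0.29), Mrpl11 (0.23), Mrps33 (0.21) and Mrpl17 (0.20). A second Mrps33 probe set, nearly as bright (mean signal 9.72 against 9.88), gave 0.16 without heat and did not pass (adjusted p = 0.057).

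Mrpl23 and Mrpl14 were also lower in HSF1-KD cells. Mrpl23 gave 9.85, 9.87 and 9.74 in HSF1-KD HS cells and 9.74, 9.62 and 9.85 in HSF1-KD Cont cells, set against the SCR values given above (differences −0.49 and −0.53, limma adjusted p = 7.5e-05 and 5.8e-05). Mrpl14 differed by −0.27 after heat shock (adjusted p = 0.0048) and by −0.23 without heat (adjusted p = 0.016). The groups did not overlap in any of these comparisons, which share the SCR arrays with those of SSBP1-KD cells. The remaining lower genes after heat shock were Mrpl39 (−0.25) and Mrps14 (−0.24), and the largest others without heat were Mrps17 (−0.35), Mrpl37 (−0.19) and Mrps15 (−0.18).

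The knockdowns were compared with each other without the SCR arrays. After heat shock 21 of 77 genes were higher in SSBP1-KD than in HSF1-KD cells (27.3%), against 11.6% of all symbols, and 2 were lower (2.60%), against 14.1%. The members' median was 0.08 and that of all symbols −0.0029. Without heat 13 were higher (16.9%), against 12.9% of all symbols, and 1 was lower, against 16.6%. Among the brighter probe sets 22 of 76 were higher after heat shock (28.9%), against 22.5% of symbols, and 18 without heat (23.7%), against 23.9%. By the methods' t-test 6 of 77 were higher after heat shock (7.79%), against 8.88% of all symbols. Mrps6 was the gene lower in both conditions, by −0.66 and −0.56 (limma adjusted p = 6.8e-07 and 2.8e-06), and Mrpl43 was lower after heat shock (−0.16, adjusted p = 0.040). The 5 largest rises after heat shock were Mrps22 (0.41), Mrps15 (0.40), Mrpl48 (0.38), Mrpl37 (0.38) and Mrpl36 (0.35), and without heat Mrpl36 (0.38), Mrps22 (0.36), Mrpl20 (0.36), Mrps15 (0.33) and Mrpl12 (0.31). Mrps22, a small-subunit protein specific to mitochondria, gave 9.84, 9.84 and 9.84 in SSBP1-KD HS cells, against 9.45, 9.46 and 9.37 in HSF1-KD HS cells. A pseudogene of Mrpl48 lies on chromosome 4 and has no probe set under its own symbol alone. The Mrpl48 probe set has a number (10514298) among those of members on chromosome 4, whereas Mrpl48 lies on chromosome 7. Which copy it reads was not tested.

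**Figure D4:**
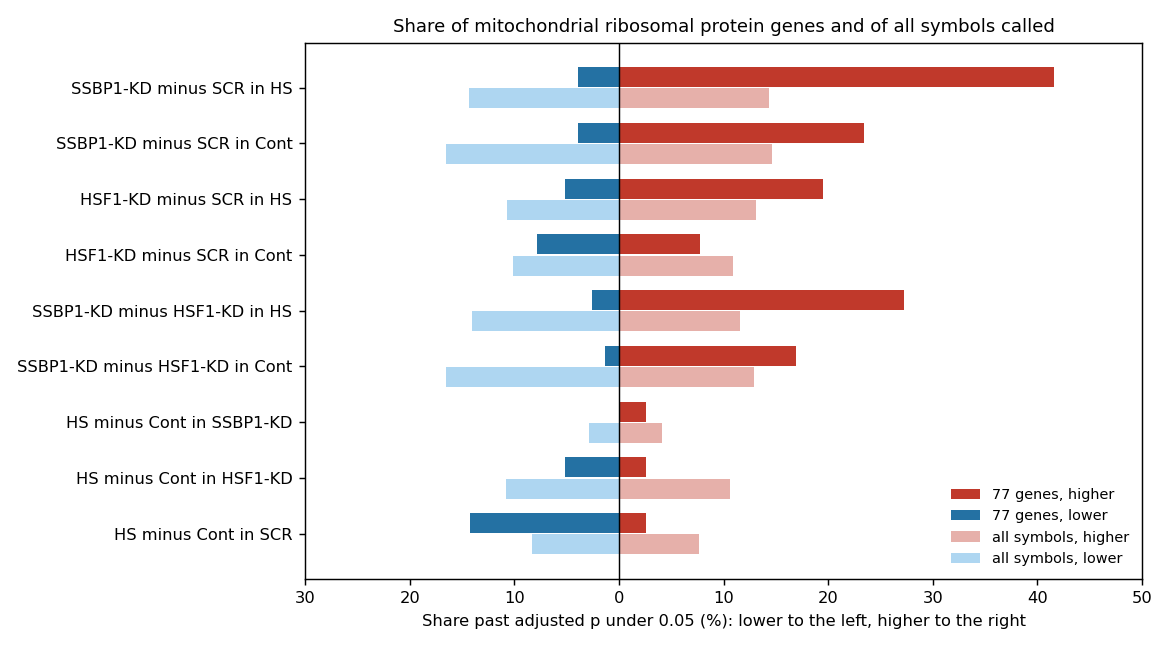
Share of genes with an adjusted p under 0.05 in each comparison (percent, horizontal axis), lower to the left and higher to the right, with dark bars for the 77 mitochondrial ribosomal protein genes and pale bars for all symbols. The dark bar for genes higher in SSBP1-KD than in SCR cells after heat shock reaches 41.6%, beside 14.3% for all symbols (25.5% among the brighter probe sets, not drawn). In SCR cells heat shock lowered 14.3% of the members, beside 8.34% of all symbols. Among the brighter probe sets these last shares were 15.8% and 16.8% (not drawn).

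Proteins of the mitochondrial ribosome that do not carry an Mrp symbol were set beside these. Of 4 measured, 3 were higher in SSBP1-KD HS than in SCR HS cells: Ptcd3 (0.33 ± 0.09, SE, limma adjusted p = 0.010), Dap3 (0.23, adjusted p = 0.0010) and Gadd45gip1 (0.20, adjusted p = 0.024). Chchd1 differed by 0.12 (adjusted p = 0.42). Without heat 1 of the 4 was higher, again Ptcd3 (0.26, adjusted p = 0.036). Of all symbols 14.3% were higher after heat shock and 14.6% without heat. Among the brighter probe sets the shares were 25.5% and 23.3%, so the count without heat was near background.

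Genes of the cytosolic ribosome, which makes all other proteins of the cell, were counted in the same way. Of 55 cytosolic ribosomal protein genes measured, 1 was higher (1.82%) and 5 lower (9.09%) in SSBP1-KD HS than in SCR HS cells, against 14.3% and 14.4% of all symbols. Without heat 2 were higher (3.64%) and 6 lower (10.9%), against 14.6% and 16.5%. Both shares were thus below those of all symbols, and the medians were 0.02 after heat shock and −0.03 without heat. The higher gene after heat shock was Rpl12, with a difference of 0.47 (limma adjusted p = 0.00014). In HSF1-KD cells 0 were higher and 16 lower after heat shock (29.1%, against 10.7% of all symbols), and 0 were higher and 22 lower without heat (40%, against 10.1%). Among the brighter probe sets 20.6% of symbols were lower after heat shock and 20.5% without heat, and this list was not matched for brightness. The medians in HSF1-KD cells were −0.11 and −0.15, and 29 and 36 of the 55 had an unadjusted p under 0.05.

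Other genes of mitochondrial translation were counted against the same shares of all symbols after heat shock, 14.3% higher and 14.4% lower. Among the brighter probe sets 25.5% of symbols were higher and 27.1% lower, and the lists below were not matched for brightness. Among 15 translation factors, 5 were higher (33.3%) and 2 lower (13.3%) in SSBP1-KD HS than in SCR HS cells, the lower share being near that of all symbols. The higher ones included Lrpprc (0.49, limma adjusted p = 3.3e-05), which stabilises mitochondrial messenger RNAs, Gfm1 (0.45, adjusted p = 0.00019), the elongation factor G of mitochondria, and Gfm2 (0.30, adjusted p = 0.00036), its recycling relative. Among 27 genes for ribosome assembly and ribosomal RNA modification, 9 were higher (33.3%) and 1 lower (3.70%). The GTPase gene Noa1 was higher (0.38, adjusted p = 0.00017), as was Mrm1 (0.30, adjusted p = 0.0056), a ribosomal RNA methyltransferase, and Tfb1m, which methylates the small ribosomal RNA, was the lower one (−0.23, adjusted p = 0.013). Among 16 mitochondrial aminoacyl-tRNA synthetases, which charge transfer RNAs, 5 were higher (31.2%) and 1 lower (6.25%), led by Mars2 (0.61, adjusted p = 2.1e-06) and Yars2 (0.40, adjusted p = 0.00033), with Vars2 lower (−0.31, adjusted p = 7.7e-05).

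Regulators of mitochondrial gene expression were measured on the same arrays. Of 12, 2 were higher (16.7%, near the 14.3% of all symbols) and 0 lower in SSBP1-KD HS than in SCR HS cells, and 6 had an unadjusted p under 0.05. The higher ones were Pprc1 (0.49, limma adjusted p = 0.00046), a coactivator related to PGC-1α, and Tfb2m (0.25, adjusted p = 0.0073), a mitochondrial transcription factor. Without heat 5 were higher (41.7%, against 14.6% of all symbols) and 1 lower (8.33%, against 16.5%), led by Myc (0.60, adjusted p = 3.3e-05), whose difference after heat shock was 0.05 (adjusted p = 0.72). Nrf1 differed by −0.03 (adjusted p = 0.78) after heat shock, Gabpa by 0.10 (adjusted p = 0.42) and Yy1 by 0.11 (adjusted p = 0.077), and none of these passed the test there. Of the transcripts of mitochondrial DNA only COX2 and ND3 had probe sets of their own symbol, and they differed by 0.03 (adjusted p = 0.88) and 0.09 (adjusted p = 0.53) after heat shock.

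Several members have more than 1 probe set or near-identical copies elsewhere, which bears on how their signals are read. Of 8 members with 2 probe sets (Mrpl23, Mrpl27, Mrpl41, Mrpl47, Mrpl51, Mrps33, Mrps36 and Mrps5), Mrpl47 was the one whose probe sets fell on different sides of the threshold between SSBP1-KD and SCR cells, and Mrps33 the one between unstressed HSF1-KD and SCR cells. Between heat-shocked and unstressed cells those of Mrpl51 did so in all 3 kinds of cells and those of Mrpl27 in HSF1-KD cells, where the dimmer set rose by 0.39 (adjusted p = 0.0061) and the brighter differed by 0.06 (adjusted p = 0.55). Pseudogenes are annotated for Mrpl23, Mrpl27, Mrpl48 and Mrps36. Probe set numbers on this array broadly follow the chromosomes of the members. The kept probe sets of Mrpl27, Mrpl41, Mrpl48, Mrpl51 and Mrps33 have numbers away from those of members on their gene's chromosome. So do the second probe sets of Mrpl23 and Mrps36. Which copy these probe sets read was not tested. Mrps36 gave 8.47, 8.61 and 8.21 in SSBP1-KD HS cells, against 8.57, 8.43 and 8.50 in SCR HS cells, and the groups overlapped (−0.07 ± 0.15, SE, limma adjusted p = 0.81). Without heat it gave 7.80, 8.34 and 8.48 in SSBP1-KD Cont cells, against 8.62, 8.46 and 8.52 in SCR Cont cells, a difference of −0.33 ± 0.15 (adjusted p = 0.13) in which SSBP1-KD Cont replicate 1 stood far below its group.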

How the data were processed

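Total RNA (200 ng) from MEF cells was hybridised to Affymetrix Mouse Gene 1.0 ST arrays, 18 in 6 groups of 3. The deposited table holds log2 signals per probe set, which the authors summarised and normalised by RMA in Partek 6.5 per the labels. The arrays' number limits the precision, and no array was dropped. Of 35557 probe sets, 21789 carried exactly 1 symbol, 1621 several and 12147 none in GEO's platform annotation, and 21698 of those with 1 symbol were matched by gene ID to RefSeq (GRCm38.p6), which gave 19938 symbols. The brightest probe set stood for a symbol. No filter on low values was applied, so all 77 members were tested.

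The analysis used limma 3.58.1 in R 4.3.3 (lmFit and eBayes), with 1 mean per group over all 18 arrays (12 residual and 2.36 prior degrees of freedom), 11 contrasts and Benjamini-Hochberg adjustment over all probe sets of each contrast. A gene was called at an adjusted p under 0.05. Counts at an unadjusted p under 0.05 have no share of all symbols beside them and cannot be read against background. The fit was tested on simulated data. Promoters were searched in Python 3.11.15, and figures drawn with matplotlib 3.10.9.

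Genes named are the 12 largest called differences in each direction between SSBP1-KD and SCR cells, the 5 largest in other comparisons, the brightest and dimmest 3 of each subunit, members with several probe sets or an unexpected place, and up to 4 genes of each companion list. Members, lists and rules were chosen with earlier results of these data known. Genes named outside this rule, such as Nrf1, Gabpa, Yy1, Chchd1 and some neighbours and pseudogenes, were chosen for their role or place after their values were seen. Alternatives were 2 scalings, a filter on dim probe sets, a robust trended prior, array weights, only the arrays compared, the replicate number as a block, the dimmest probe set, the methods' t-test and each array left out in turn.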

Additional observations from a re-analysis of the deposited data

How the results depend on the processing

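The called members of the comparisons of SSBP1-KD with SCR cells kept their direction under every alternative run. In the other comparisons, for which the same alternatives were added after seeing the data, 1 called difference changed direction, that of Mrpl51 between heat-shocked and unstressed SSBP1-KD cells, which was −0.0080 on its dimmer probe set. Member medians close to 0 crossed it. That of HSF1-KD against SCR without heat was −0.02 to 0.03 over the alternatives, with 4 of 27 below 0. For heat shock it was −0.01 to 0.03 in HSF1-KD cells, with 4 below 0, and −0.0054 to 0.04 in SSBP1-KD cells, with 3 below 0. Between SSBP1-KD and SCR cells after heat shock, higher members numbered 24 to 35 and lower ones 2 to 3 as arrays were left out, and 19 and 1 by the methods' t-test, against 32 and 3. Without heat the counts were 6 to 21 and 2 to 4 as arrays were left out, with 5 higher in a fit of only the arrays compared and 3 by the methods' t-test, against 18 and 3. For the other comparisons, members called in either direction are given. In a fit of only the arrays compared they were 6 for HSF1-KD against SCR without heat, 7 for SSBP1-KD against HSF1-KD without heat, and 1 and 0 for heat shock in HSF1-KD and SSBP1-KD cells. The methods' t-test called 8 and 6 for HSF1-KD against SCR with and without heat, 7 for SSBP1-KD against HSF1-KD after heat shock, and 0, 1 and 8 for heat shock in SSBP1-KD, HSF1-KD and SCR cells. Array weights gave 32 for HSF1-KD against SCR after heat shock, 24 for SSBP1-KD against HSF1-KD without heat, and 7, 10 and 26 for heat shock in SSBP1-KD, HSF1-KD and SCR cells. The brighter probe sets alone gave 5 and 13 for heat shock in SSBP1-KD and HSF1-KD cells, and the dimmest probe set of each symbol gave 1 in SSBP1-KD cells. The heat response compared between SSBP1-KD and SCR cells gave 1 call with quantile normalisation, with array weights and among the brighter probe sets, and 0 to 0 with arrays left out, as had that of HSF1-KD cells.

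Left-out arrays gave 10 to 22 calls for HSF1-KD against SCR after heat shock and 5 to 14 without heat, 16 to 24 and 13 to 21 for SSBP1-KD against HSF1-KD, and 1 to 3, 2 to 9 and 5 to 17 for heat shock in SSBP1-KD, HSF1-KD and SCR cells. The cause of these moves was not tested. The residual correlations did not show a pairing by replicate number. Of the 45 pairs with the same number 6 had a correlation over 0.1, the range being −0.28 to 0.17. For 6 of the 18 arrays the nearest array in another group bore the same number. The members' mean residual, however, was positive on replicate 1 and negative on replicate 3 in every group but SSBP1-KD Cont (−0.05 and 0.03). A pairing in the members alone was not tested. With the replicate number as a block, heat shock in SSBP1-KD cells had 4 calls, and no other count moved by more than 1.5 times. Signals of a probe set cannot be read as transcript numbers, and 3 arrays a group limit what small differences can show.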

Other observations

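The probe set shared by Mrpl53 and Ccdc142 belongs to no single symbol and was left out of the counts above. It differed by 0.02 (limma adjusted p = 0.86) between SSBP1-KD and SCR cells after heat shock and by −0.07 (adjusted p = 0.38) without heat. In SCR cells it was lower after heat shock (−0.18, adjusted p = 0.028).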
